A study of Mus musculus with 2 samples.

Results

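Mast cells of day 5 mouse wounds were identified by their granule protease RNA in single-cell RNA sequencing data, and 53 such cells were found among 18596 kept cells of 2 libraries. A kept cell had at least 500 genes detected and at most 10% of its unique molecular identifiers (UMIs, which count RNA molecules) from mitochondrial genes. It was chosen as a mast cell when *Cpa3*, *Mcpt4*, *Cma1* and *Tpsb2* together made up at least 0.5% of its UMIs, when it had at least 1 UMI of *Kit* or at least 5 of *Cpa3*, and when *Col1a1* and *Col3a1* stayed under 1% of its UMIs. The cells were thus selected on the measured levels of these genes, and those levels and all contrasts of mast cells with other cells follow from this choice and are given as a description.

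The wounds were on the back skin of male C57BL/6 mice aged 7 to 9 weeks, and live (7AAD-negative) cells from a 10 mm punch of wound bed and skin were captured 5 days after wounding, with 3 mice pooled per library and no biological replicate. Both libraries are labelled as *Mrc1-DTR* mice, in which the promoter of *Mrc1*, the gene of the macrophage receptor CD206, drives the diphtheria toxin receptor, and the treatment given in the labels is PBS for one library and Diphtheria toxin (DTX) for the other. The methods of the study instead describe the controls as wild-type mice that also received the toxin. The library labelled PBS held 12058 barcodes with 105511870 UMIs, and that labelled DTX held 11031 barcodes with 81858751 UMIs. After filtering, 9679 and 8917 cells were kept, of which 28 and 25 were mast cells with 121495 and 188759 UMIs in all. Of the 23089 barcodes, 37 occurred in both libraries, and 0 of the mast cells were among them.

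The targeted gene *Mrc1* (ENSMUSG00000026712, chr2:14229392-14332057 in GRCm38) was higher over all cells of the DTX-labelled library and similar within macrophage-like cells. Its level over all kept cells was 65.2 counts per 1000000 UMIs (CPM; 95% interval 63.6 to 66.8) in the PBS-labelled library and 250 CPM (247 to 254) in the DTX-labelled library. A UMI of it was found in 20.6% and 47.7% of kept cells. In macrophage-like cells, which were kept cells with RNA of *Csf1r* and of *Adgre1* or *Fcgr1* that belonged to no other class, its level was 423 CPM (411 to 436) and 441 CPM (434 to 448). With each of these cells thinned to 2000 UMIs, a UMI of *Mrc1* was found in 784 of 1524 (51.4%, 48.9% to 54.0%) and in 1960 of 4413 (44.4%, 42.9% to 45.9%), and unthinned in 74.2% and 70.3%, both lower in the DTX-labelled library. Macrophage-like cells made up 16.3% of the kept cells of the PBS-labelled library, 1576 of 9679 (15.6% to 17.0%), and 4455 of 8917 (48.9% to 51.0%) of those of the DTX-labelled library. The study also gives the barcode number of the PBS-labelled library for its depleted mice, and that of the DTX-labelled library for its controls. Other classes also differed between the libraries. Fibroblast-like cells made up 19.4% of kept cells in the PBS-labelled and 4.90% in the DTX-labelled library, keratinocyte-like cells 12.7% and 1.59%, and neutrophil-like cells 0.713% and 4.55%. The study describes its depleted wounds as holding more leukocytes and fewer fibroblasts and epithelial cells, which by these shares is the DTX-labelled library. The barcode numbers thus ran against the labels. So did the level of *Mrc1* over all cells, in a library that also held a larger share of macrophage-like cells. The detection of *Mrc1* in macrophage-like cells and the cell composition, set beside these measures of the study, ran with the labels. Its level in those cells was similar, so that which library came from depleted mice cannot be told apart here. The libraries are named by their labels throughout, and no direction below is read as one of depletion. With 1 library per label no test was possible, and every interval is a 95% interval of counting error alone, exact Poisson for levels, Clopper-Pearson for shares and conditional binomial for ratios.

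Mast cells are tissue-resident cells of the blood lineage that lie near vessels and nerves of the dermis and depend on the receptor KIT. They store histamine and proteases bound to proteoglycans in granules and release them when antigen binds IgE on the high-affinity receptor FcεRI, or when basic peptides bind MRGPRB2. Those of mouse connective tissue are known for the chymases MCPT4 and CMA1, the tryptase TPSB2 and carboxypeptidase A3, and are commonly associated with vessel leakage and leukocyte entry after injury.

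*Mcpt4*, a chymase, had 6771 UMIs in the 28 PBS-labelled cells, a level of 55731 CPM, and 10877 UMIs in the 25 DTX-labelled cells, a level of 57624. For *Cma1*, the other chymase, 4715 and 11177 UMIs gave levels of 38808 and 59213 CPM. Single cells held between 12 and 730 UMIs of *Mcpt4*, with a median of 198.5, in the PBS-labelled and between 18 and 1523, with a median of 397, in the DTX-labelled library. For *Cma1* they held between 9 and 680, with a median of 100, and between 15 and 1530, with a median of 328, so the ranges of the libraries overlapped for both chymases. *Cpa3* had levels of 25005 and 31013 CPM, and *Tpsb2*, the tryptase, 17169 and 29413. In macrophage-like cells the highest of the 4 proteases was *Mcpt4* in the PBS-labelled library, at 3.8 CPM. *Kit*, the receptor for stem cell factor, had 50 and 123 UMIs, a level of 412 and 652 CPM, and was detected in 19 of 28 (67.9%, 47.6% to 84.1%) and 24 of 25 (96.0%, 79.6% to 99.9%) mast cells. The DTX-labelled mast cells were deeper. Among cells with at least 2000 UMIs, thinned to that depth, *Kit* was found in 11 of 19 (57.9%, 33.5% to 79.7%) and 15 of 19 (78.9%, 54.4% to 93.9%). All 4 proteases were found together in 26 of 28 and 25 of 25 cells. All 14 markers listed for mast cells, of which 5 are the rule genes, had a UMI. So did all 9 macrophage, 6 keratinocyte and 6 basophil markers, so this does not tell cell types apart.

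The start regions of the genes are shown because GATA2, a factor on which the mast cell lineage depends, binds short GATA words. In GRCm38, *Mcpt4* (ENSMUSG00000061068, chr14:56059629-56062313) and *Cma1* (ENSMUSG00000022225, chr14:55941451-55944675) lie near each other, *Cpa3* (ENSMUSG00000001865) spans chr3:20215620-20242181, *Tpsb2* (ENSMUSG00000033825) chr17:25366305-25369098 and *Kit* (ENSMUSG00000005672) chr5:75574916-75656722, and all 5 are protein-coding. In the RefSeq sequences of GRCm38.p6, 250 bases before to 50 after the start, the word AGATAA, its variant AGATAG, the word TGATAA and its variant TGATAG were searched on both strands. They are in capitals, written as read on the strand of the gene, so that a match of the other strand appears reversed and complemented. *Cpa3* (chr3:20242132-20242431, minus strand) has AGATAA 46 bases before its start. *Mcpt4* (chr14:56062261-56062560, minus strand) has TGATAA 103 bases before it. The match of *Cma1* (chr14:55944626-55944925, minus strand) lies 79 bases before the start and that of *Fcer1a* (chr1:173227180-173227479, minus strand), the ligand-binding chain of FcεRI, 92 bases before it, both on the other strand.
Cpa3: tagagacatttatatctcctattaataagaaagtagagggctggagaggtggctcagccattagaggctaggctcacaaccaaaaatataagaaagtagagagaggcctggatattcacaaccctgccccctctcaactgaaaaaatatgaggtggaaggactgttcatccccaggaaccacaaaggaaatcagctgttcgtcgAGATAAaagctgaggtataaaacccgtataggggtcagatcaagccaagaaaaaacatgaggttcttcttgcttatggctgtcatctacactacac
Mcpt4: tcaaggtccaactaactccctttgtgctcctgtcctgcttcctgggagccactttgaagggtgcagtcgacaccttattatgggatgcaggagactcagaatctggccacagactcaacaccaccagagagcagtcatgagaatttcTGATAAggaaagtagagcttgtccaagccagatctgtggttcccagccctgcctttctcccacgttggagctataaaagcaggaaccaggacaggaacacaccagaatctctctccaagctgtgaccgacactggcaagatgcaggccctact
Cma1: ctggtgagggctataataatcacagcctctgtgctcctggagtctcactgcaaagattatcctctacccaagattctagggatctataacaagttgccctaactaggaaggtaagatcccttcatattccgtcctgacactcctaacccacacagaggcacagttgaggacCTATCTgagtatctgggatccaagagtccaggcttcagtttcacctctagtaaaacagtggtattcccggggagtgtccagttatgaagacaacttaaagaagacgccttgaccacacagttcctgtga
Fcer1a: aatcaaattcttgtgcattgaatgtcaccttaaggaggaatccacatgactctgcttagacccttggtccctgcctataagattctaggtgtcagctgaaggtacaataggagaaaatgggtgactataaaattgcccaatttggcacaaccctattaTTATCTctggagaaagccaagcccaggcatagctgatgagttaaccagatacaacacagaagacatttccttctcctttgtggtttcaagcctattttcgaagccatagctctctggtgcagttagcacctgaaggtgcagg

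Of the 21 genes looked up, which are the 5 rule genes, *Hdc* and the 15 genes with the largest ratio of mast cells over other cells, 19 had a promoter in the table. At least 1 of the words was present in 16 of these 19 genes, against 8930 of all 27025 genes, or 33.0%. *Kit*, *Mrgprx2* and *Ctsg* had 0 matches in this window. The matches are words in a sequence and were not tied to binding or to a level.

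The proteases formed a large part of the RNA of most mast cells. Their summed share was 13.7% of all UMIs in the PBS-labelled and 17.7% in the DTX-labelled mast cells. Single cells ranged from 1.40% to 23.6%, with a median of 13.9%, in the PBS-labelled library. In the DTX-labelled library they ranged from 3.97% to 26.5%, with a median of 18.1%. Thus the lowest cell of either library still lay well above the threshold of 0.5%, and no kept cell had between 0.2% and 0.5%. The lowest PBS-labelled cell only just met the other limit, with 5 UMIs of *Cpa3* and 0 of *Kit*. Just outside the rule, the highest shares among cells with little collagen RNA were 0.190% in the PBS-labelled library and 0.893% in the DTX-labelled library, the latter from a cell with 1 UMI of *Cpa3* and 0 of *Kit*. A further 3 PBS-labelled cells with protease shares of 3.88%, 2.07% and 1.47% had collagen above the limit.

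**Figure D1:**
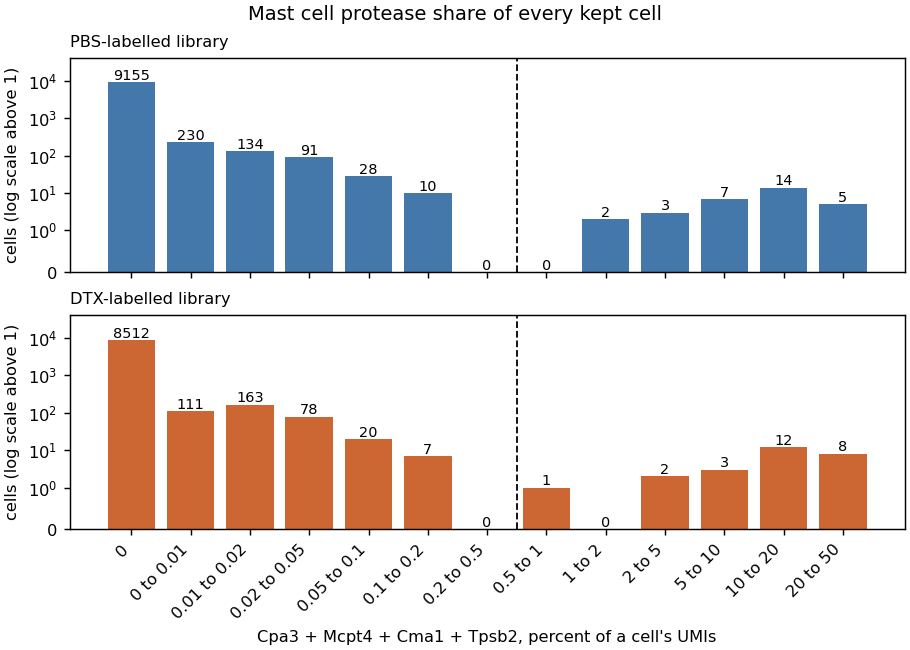
Number of kept cells (vertical axis, logarithmic above 1) by the percent of their UMIs that come from *Cpa3*, *Mcpt4*, *Cma1* and *Tpsb2* (horizontal axis), for each library. The dashed line is the threshold of 0.5%. 9155 PBS-labelled and 8512 DTX-labelled cells had a share of 0, and no cell lay between 0.2% and 0.5%.

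The proteases were not in the same proportion in all cells. *Cma1* made up 41.0% of the sum of *Cma1* and *Mcpt4* UMIs in the PBS-labelled and 50.7% in the DTX-labelled mast cells. Over single cells this ranged from 16.7% to 60.3%, with a median of 42.0%, and from 36.4% to 63.4%, with a median of 49.0%. More *Cma1* than *Mcpt4* UMIs were found in 6 of 28 and 11 of 25 cells, and the ranges of the libraries overlapped. The share of *Tpsb2* among the 4 proteases was 12.6% and 16.6%, with cells between 0% and 24.4% and between 1.74% and 26.4%.

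Mast cells were shallower than other cells. Their UMI count was between 841 and 22701, with a median of 3523, in the PBS-labelled library, where other kept cells had a median of 9531. In the DTX-labelled library it was between 1079 and 23815, with a median of 5613, against 7344 in other cells. The median mitochondrial share was 5.84% and 6.26%, above the 3.91% and 4.41% of other cells. The upper limit of 6% that the study states would leave 14 and 12 mast cells, and together with its limit of 2000 genes 12 and 6.

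Mast cells made up 0.289% (0.192% to 0.418%) of kept cells of the PBS-labelled library and 0.280% (0.182% to 0.414%) of those of the DTX-labelled library. Set against cells with a UMI of *Ptprc*, the gene of the leukocyte marker CD45, 18 of 2682 cells (0.671%, 0.398% to 1.06%) and 19 of 6055 cells (0.314%, 0.189% to 0.490%) were mast cells. Against the sum of mast, macrophage-like, neutrophil-like, T- or NK-like and basophil-like cells the shares were 1.40% (0.934% to 2.02%) and 0.487% (0.315% to 0.718%). The shares of all kept cells were thus close (though 0.476% and 0.227%, from 12 and 6 mast cells, under both limits of the study), the intervals of the shares of *Ptprc* cells overlapped, and those of the third denominator did not, the DTX-labelled library holding more macrophage-like cells. Numbers of mast cells per wound were not measured.

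RNA of other cell types in the mast cells was measured with fixed marker lists. The 6 basophil markers, 3 of which are also mast cell markers, were led by *Fcer1a*, and *Mcpt8*, the defining one, had 3 and 6 UMIs. Of 9 macrophage markers all had a UMI, with a summed level of 716 CPM in the PBS-labelled and 1415 in the DTX-labelled mast cells against 1953 and 6399 in other cells, and *Lyz2* was the most abundant with 41 and 170 UMIs. The 6 keratinocyte markers gave 592 and 42 UMIs, led by *Lgals7* with 228 and 28. The 6 fibroblast markers gave 104 and 22 UMIs, led by *Col3a1* with 30 and 5, and *Pdgfra* was at 0. Neutrophil markers were nearly absent, with 0 and 4 UMIs over 5 genes, led by *S100a8* with 0 and 2, and *Csf3r*, *Cxcr2* and *Retnlg* at 0. The 7 T or NK markers had 5 and 0 UMIs, led by *Nkg7* with 3 and 0 and with *Cd3d*, *Cd3e*, *Cd3g* and *Klrb1c* at 0, and the 4 endothelial markers 1 and 9, led by *Pecam1* with 0 and 8 and with *Kdr* and *Vwf* at 0. Of the 5 dendritic markers only *H2-Ab1*, with 14 and 57 UMIs, was found, and *Flt3*, *Cd209a*, *Ccr7* and *Xcr1* were at 0.

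Some of this RNA sat in 4 cells that also passed the definition of another class. The deepest PBS-labelled mast cell, with 22701 UMIs, also passed the limit for keratinocyte-like cells (at least 1% of UMIs from *Krt5*, *Krt14*, *Krt1* and *Krt10*) and held 147 of the 148 *Krt10* UMIs of its group. Among DTX-labelled mast cells, 3 also passed the definition of macrophage-like cells and held 161 of 175 UMIs of *Cd74*, 164 of 170 of *Lyz2* and all 11 of *Mrc1*. Of the 41 *Lyz2* UMIs of the PBS-labelled mast cells, 32 came from a cell that passed no other definition, had 1855 UMIs and had the lowest protease share, 1.40%. That cell had 0 UMIs of *Kit*, *Tpsb2*, *Hdc*, *Mrgprb1* and *Fcer1a*, and it is kept where the 4 cells are left out. Of the 30 *Col3a1* UMIs of the PBS-labelled mast cells, 2 came from the cell of the keratinocyte definition. *Mrc1* was otherwise found as 3 UMIs in 3 PBS-labelled mast cells, and in 0 of the 22 DTX-labelled mast cells that passed no other definition, with a 95% interval of 0 to 24.5 CPM. Doublet calling was not run, and ratios or counts are given below with and without these 4 cells where they carried many of a gene's UMIs.

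Of 862 genes with at least 50 UMIs over the 53 mast cells, 112 (13.0%) were more than 4-fold higher in mast cells than in other kept cells in both libraries. As these contrasts follow the choice of the cells, the counts of gene groups below are descriptive. Of the 15 genes with the largest ratio outside the rule, *Mrgprb1*, of the MRGPR family of peptide receptors, led with 283 UMIs in 26 of 28 and 383 UMIs in 25 of 25 cells. Its level was 2329 and 2029 CPM in mast cells and 0.260 and 0.184 in other cells. Of the same family, *Mrgprb2*, the receptor for basic secretagogues, had 62 UMIs in 18 and 88 UMIs in 20 cells and *Mrgprx2* 22 and 28 UMIs, while all other kept cells held 0 UMIs of *Mrgprx2*. The remaining genes were *Fcer1a*, *Ms4a2*, *Tpsab1*, *Tpsg1*, *Ctsg*, *Cyp11a1*, *Cd200r3*, *Il13*, *Slc18a2*, *Slc6a4*, *Tph1* and *Rgs13*, and the smaller of their ratios in the 2 libraries was between 6.81 for *Ctsg* and 9.50 for *Fcer1a* on the log2 scale with 1 CPM added.

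**Figure D2:**
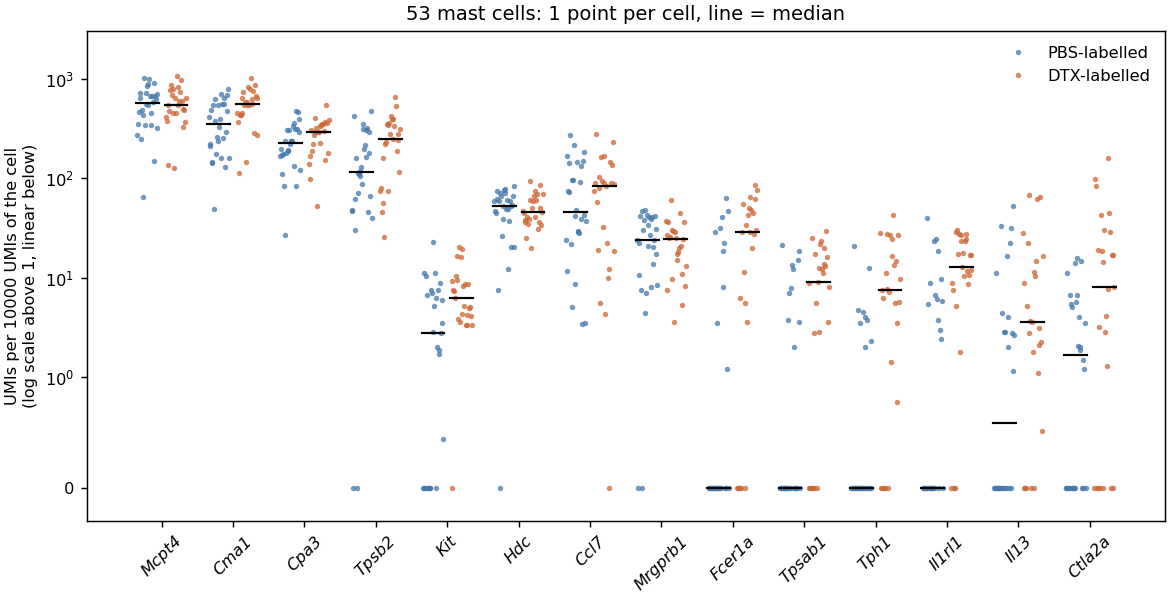
UMIs per 10000 UMIs of the cell (vertical axis, logarithmic above 1 and linear below) for 14 genes in each of the 53 mast cells, 28 PBS-labelled and 25 DTX-labelled; lines are medians. *Mcpt4*, *Hdc* and *Mrgprb1* lay at similar heights in both libraries, whereas *Fcer1a*, *Tpsab1*, *Tph1* and *Il1rl1* had a median of 0 in the PBS-labelled and above 0 in the DTX-labelled cells.

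The granule protease list held 20 genes, of which 13 had at least 50 UMIs. Of these, 9 were more than 4-fold higher in mast cells in both libraries, against 13.0% of all 862 genes. Besides the rule genes these were *Tpsab1*, *Tpsg1*, *Ctsg*, *Gzmb* and *Adamts9*, a secreted metalloprotease. *Tpsg1*, the membrane-bound γ-tryptase, had 56 and 42 UMIs and *Ctsg*, cathepsin G, 22 and 34, the latter in 9 and 7 cells. The lysosomal cathepsin *Ctsd* had 137 and 541 UMIs, *Ctsb* 37 and 94 and *Ctsl* 17 and 41, and *Ctsb* and *Ctsl* were at a lower level than in other cells.

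In the list of proteoglycan, heparin and amine genes, 6 of 8 genes with at least 50 UMIs were more than 4-fold higher, against 13.0% of all 862 genes. *Hdc*, the enzyme that makes histamine, had 569 UMIs in 27 of 28 PBS-labelled and 1017 UMIs in 25 of 25 DTX-labelled cells, at levels of 4683 and 5388 CPM. Neutrophil-like cells had 1984 and 2125 CPM of it, and the basophil-like cells described below 2513 and 3752. *Slc18a2*, the transporter that loads amines into granules, had 50 and 110 UMIs, and *Maob*, which degrades amines, 49 and 78. *Hs6st2* and *Hs3st1*, which sulfate heparan chains, had 35 and 59, and 93 and 112 UMIs. *Srgn*, the core protein of the granule proteoglycan, had a level of 5836 and 7226 CPM and was also abundant in neutrophil-like cells, at 9754 and 15490.

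The FcεRI list had 5 of 8 genes more than 4-fold higher in both libraries, against 13.0% of all 862 genes. They were *Fcer1a*, *Ms4a2*, *Lat*, *Lat2* and *Lcp2*. *Ms4a2*, the β-chain, had 46 UMIs in 20 cells and 48 UMIs in 18 cells, and the 6 classes of other cells, which do not include basophil-like cells, held 0 UMIs of it in both libraries. *Fcer1g*, the γ-chain shared with other Fc receptors, had levels of 2790 and 3422 CPM. The adaptors *Lat2*, with 101 and 149 UMIs, and *Lcp2*, with 37 and 78, link the receptor to calcium release.

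Among other receptors, 6 of 9 genes were more than 4-fold higher in both libraries, against 13.0% of all 862 genes. They were *Kit*, *Mrgprb1*, *Mrgprb2*, *Adora3*, *Cd200r3* and *Ramp1*, and *Kit* is a rule gene. *Adora3*, the adenosine A3 receptor, had 43 and 48 UMIs. *Ramp1*, a subunit of the receptor for the neuropeptide CGRP, had 46 and 39 UMIs. *Csf2rb*, the β-chain of the IL-3 and GM-CSF receptors, had a level of 848 and 662 CPM and was at 120 and 513 in other cells. Of the lineage factors, *Gata2* with 36 and 75 UMIs was more than 4-fold higher, and *Runx1* and *Spi1* were not, while *Mitf*, with 7 and 9 UMIs, was too sparse to be counted.

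Among the listed cytokines and chemokines, *Ccl7* had most UMIs in mast cells. *Ccl7*, which attracts monocytes through CCR2, had 837 UMIs in 28 of 28 and 1612 UMIs in 24 of 25 cells. Its level was 6889 (6430 to 7372) and 8540 (8128 to 8967) CPM, against 4108 and 2975 in fibroblast-like cells and 991 and 1208 in macrophage-like cells. *Ccl2*, another CCR2 ligand, had a level of 1778 and 3062 CPM, below the 8385 and 6914 of fibroblast-like cells. For *Il13*, a type 2 cytokine, 108 UMIs in 14 cells and 281 UMIs in 20 cells were counted, and its level of 889 and 1489 CPM compares with 91.6 and 33.5 in T- or NK-like cells. *Il4* had 3 and 32 UMIs, *Il6* 46 and 53, *Tnf* 10 and 14 and *Csf1* 47 and 60. Of this list of 30 cytokines and chemokines, 11 had at least 50 UMIs and *Il13* and *Ccl1* were more than 4-fold higher than in other cells in both libraries. This compares with 13.0% of all 862 genes. The list summed to 12749 and 17371 CPM in mast cells and to 11609 and 14052 in other cells. *Cxcl2* was lower in mast cells, at 329 and 1404 CPM against 1602 and 3977. *Il5*, *Il9*, *Il10* and *Csf2* had fewer than the 10 UMIs set for a value to be given.

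The other lists held few genes of this kind. None of the eicosanoid (1 with at least 50 UMIs), growth and matrix factor (4), adhesion (3), immediate early (16), heat shock (9), cell cycle (1), interferon (5) and glycolysis (5) genes was more than 4-fold higher in both libraries. In the degranulation list it was 2 of 5, against 13.0% of all 862 genes. These were *Rab27b*, a GTPase of granule docking, with 69 and 93 UMIs, and *Swap70*, with 16 and 45. The tetraspanin *Cd63*, a granule membrane protein used as a degranulation marker on the cell surface, had 256 and 736 UMIs. In the list of scavenging and depletion genes *Clec10a*, a lectin of macrophages and dendritic cells, had 73 UMIs in 16 and 47 UMIs in 14 mast cells, at a level of 601 and 249 CPM against 98.6 and 56.3 in macrophage-like cells. *Clec10a* was counted 0 times in basophil-like cells.

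Basophils share many mast cell genes, so kept cells that were no mast cell and had at least 3 UMIs of *Mcpt8*, a basophil protease, were set beside the mast cells, a definition added after the data had been seen. It leaves out 1 DTX-labelled mast cell that had 5 UMIs of *Mcpt8* among 9063. There were 23 such cells in the PBS-labelled and 6 in the DTX-labelled library, 0.238% and 0.0673% of kept cells. *Hdc*, *Fcer1a*, *Ms4a2*, *Cd200r3*, *Cyp11a1*, *Gata2*, *Il13* and *Slc18a2* were found in both kinds of cell. *Cyp11a1*, which converts cholesterol to pregnenolone, had levels of 1210 and 636 CPM in mast cells and 1432 and 849 in basophil-like cells. Its redox partner *Fdx1*, chosen after its values were seen, had 1407 and 699 in mast cells and 24.4 and 44.7 in basophil-like cells. *Mcpt4*, *Tpsb2*, *Tpsab1*, *Mrgprb1* and *Tph1* had 0 UMIs in the 29 basophil-like cells, and *Cpa3* had 557 and 491 CPM there. As mast cells were left out by their protease share, the low counts of *Mcpt4* and *Tpsb2* follow from the choice of cells, and the mast cell with 5 UMIs of *Mcpt8* held 886 and 599 UMIs of them, 18 of *Tpsab1*, 19 of *Mrgprb1* and 5 of *Tph1*. In the other direction, *Ccl3*, a chemokine gene, had 1901 UMIs in 23 PBS-labelled basophil-like cells and 43 UMIs in 28 mast cells. *Ccl7* showed the reverse, with 13 and 837 UMIs. *Prss34*, another basophil protease, had 633 and 58 UMIs in basophil-like cells, the latter in 1 cell, and 76 and 0 in mast cells.

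**Figure D3:**
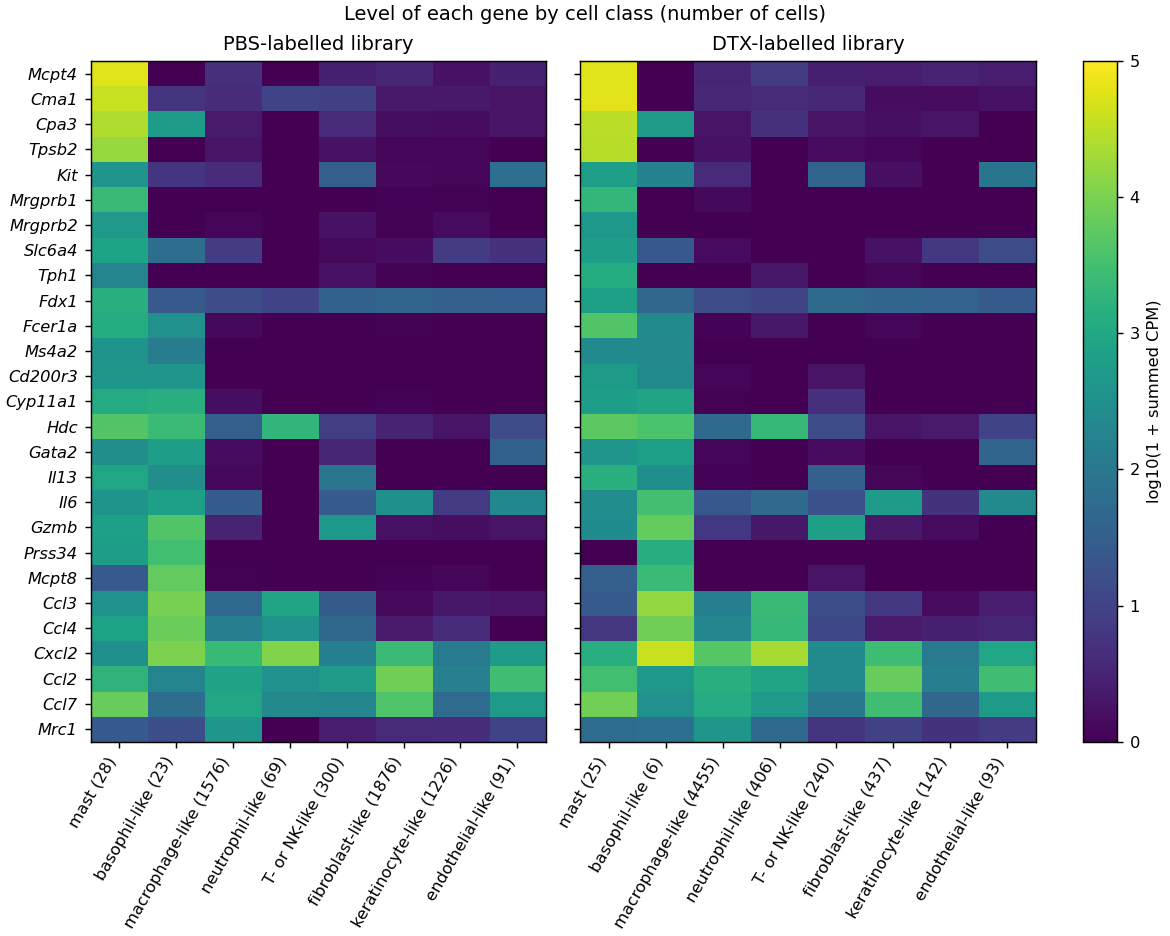
Level of each named gene (rows, colour, log10 of CPM plus 1) by cell class (columns, with the number of cells) in each library. *Mcpt4*, *Tpsb2*, *Mrgprb1* and *Mrgprb2* were high in mast cells and near 0 elsewhere, *Fcer1a*, *Cd200r3* and *Cyp11a1* were shared with basophil-like cells, and *Ccl3*, *Ccl4* and *Cxcl2* were higher in basophil-like cells.

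Mast cells differed among themselves in *Fcer1a*. In the PBS-labelled library its UMI count per cell was 0 at the lowest, 0 at the median and 46 at the highest, with 154 UMIs in 10 of 28 cells. In the DTX-labelled library it was 0, 19 and 181, with 813 UMIs in 19 of 25 cells. Because shallow cells can lack a UMI by chance, cells with at least 2000 UMIs were compared, 19 in each library. Among these, 10 PBS-labelled (52.6%, 28.9% to 75.6%) and 18 DTX-labelled cells (94.7%, 74.0% to 99.9%) had a UMI of *Fcer1a*, and 9 and 18 when every cell was thinned to 2000 UMIs. In macrophage-like cells, which should lack it, the thinned counts were 0 of 1524 and 1 of 4413, at median depths of 5924 and 7145 UMIs against 3523 and 5613 in mast cells. The cells without *Fcer1a* were therefore mostly PBS-labelled, and the deepest of them was the cell that also passed the keratinocyte definition.

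This split was made after the values had been seen. Within the PBS-labelled library, *Cma1* had a level of 59310 CPM in the 10 cells with *Fcer1a* and 21042 in the 9 cells without it, a log2 ratio of 1.49 (1.40 to 1.59). *Tpsb2* had a log2 ratio of 1.27 (1.13 to 1.41), *Cpa3* of 0.86 (0.75 to 0.98) and *Mcpt4* of 0.39 (0.31 to 0.46). The 9 cells include the 1 of the keratinocyte definition, which held many of their UMIs. Without it the ratios were 1.28 (1.17 to 1.39) for *Cma1*, 0.76 (0.61 to 0.90) for *Tpsb2*, 0.56 (0.43 to 0.68) for *Cpa3* and 0.07 (-0.01 to 0.15) for *Mcpt4*. The cells without *Fcer1a* thus held less *Cma1*, *Tpsb2* and *Cpa3* either way, and about as much *Mcpt4* once that cell was left out. The median protease share was 19.3% with and 12.0% without *Fcer1a*, and the median depth 5158 and 3851 UMIs. *Tpsab1*, a second tryptase, had 45 UMIs with and 4 without it. *Tph1*, the first enzyme of serotonin synthesis, had 20 and 0 UMIs, *Ctsd* 107 and 20, and *Il1rl1*, the receptor for IL-33, 44 and 13. In the opposite direction, *Il6* had 3 and 38 UMIs and *Gzmb*, granzyme B, 12 and 62. Of the 62 *Gzmb* UMIs, 59 came from 2 cells with 39 and 20, and *Gzmb* was detected in 5 of the 10 cells with and 4 of the 9 cells without *Fcer1a*. *Il6* was detected in 2 of 10 and 6 of 9 cells, and the 2 highest of the latter held 19 and 10 UMIs. Without the cell of the keratinocyte definition these log2 ratios were 2.78 for *Tpsab1*, 2.33 for *Ctsd*, 1.05 (0.14 to 2.07) for *Il1rl1*, -4.26 for *Il6* and -3.07 for *Gzmb*. *Kit*, with 23 and 24 UMIs, *Ms4a2*, with 18 and 21, *Slc6a4*, with 40 and 47, and *Ccl7*, with 383 and 357, had similar UMI counts in the 2 kinds of cell. The log2 ratio of *Kit* was -0.02 (-0.91 to 0.87), and -0.70 (-1.60 to 0.20) without the cell of the keratinocyte definition. *Prss34* was present in 4 of the cells with *Fcer1a*, which held its 76 UMIs, between 11 and 34 per cell, and 0 UMIs of *Mcpt8*. These are contrasts of cells of 1 library, and their part in the differences between the libraries was not tested.

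**Figure D4:**
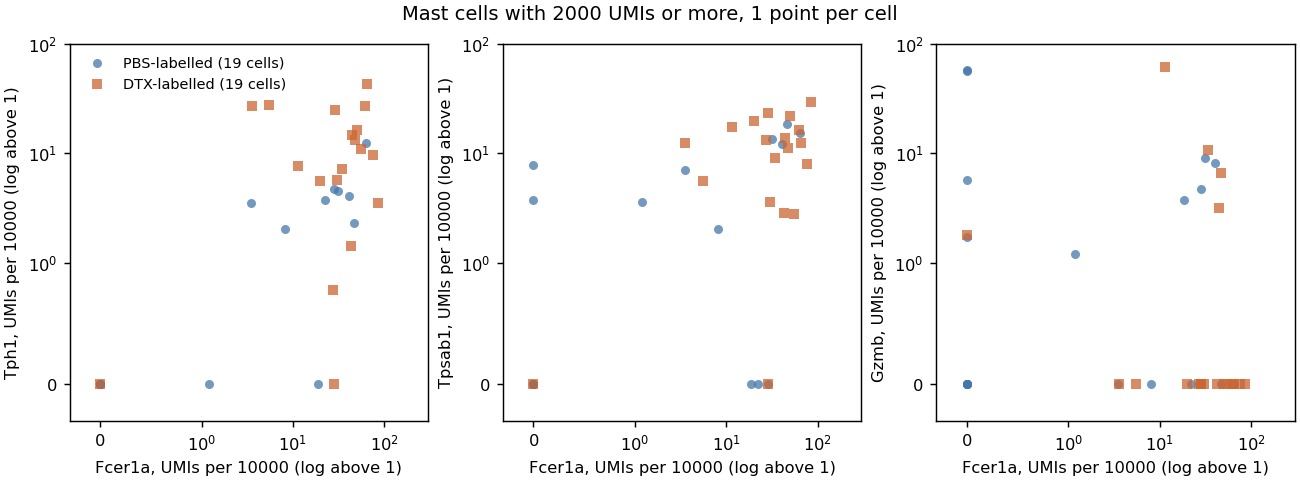
*Tph1*, *Tpsab1* and *Gzmb* (vertical axes) against *Fcer1a* (horizontal axes), all as UMIs per 10000 UMIs of the cell on axes that are logarithmic above 1, for the 38 mast cells with at least 2000 UMIs. The 9 PBS-labelled cells with an *Fcer1a* of 0 had 0 UMIs of *Tph1*, and cells with *Fcer1a* spread over the whole range of *Tpsab1*.

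After every cell with at least 2000 UMIs was thinned to that depth, the genes with the largest variance over mean outside the rule, ranked by the smaller value of the 2 libraries, were *Malat1*, *Gm42418*, *Isg15*, *Ccl7*, *Gzmb*, *Hspa5*, *Ccl2*, *Ftl1*, *Cxcl2* and *Actb*. In 1 library alone others were higher, and *Fth1*, a ferritin chain, had 33.0 in the DTX-labelled and 3.23 in the PBS-labelled cells, against 12.6 and 18.6 for *Malat1*. Several of these were carried by few cells. *Isg15*, an interferon-induced ubiquitin-like protein, had 145 UMIs in 13 PBS-labelled cells, of which the highest cell held 97, and 225 UMIs in 12 DTX-labelled cells, of which the highest held 139. *Gzmb* had 81 UMIs in 13 cells with 39 in the highest, and 51 UMIs in 7 cells with 32 in the highest. *Ccl7*, by contrast, was broad, with 1, 16 and 153 UMIs at the lowest, median and highest PBS-labelled cell and 0, 25 and 415 among DTX-labelled cells. Of the genes outside the rule and outside ribosomal and mitochondrial genes, the 10 with most UMIs were *Malat1*, *Ftl1*, *Ccl7*, *Tmsb4x*, *Tpt1*, *Srgn*, *Fth1*, *Actb*, *Vim* and *Hdc*. Of the 20 cell cycle genes, *Mki67*, *Top2a* and 14 others had fewer than 10 UMIs. The list gave 107 UMIs in each library, a summed level of 881 CPM in the PBS-labelled and 567 CPM in the DTX-labelled mast cells, against 666 and 797 CPM in other cells.

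The 2 libraries were compared as the log2 ratio of DTX-labelled over PBS-labelled mast cells. Of the 862 genes, 69 (8.0%) were more than 2-fold higher and 46 (5.34%) more than 2-fold lower in the DTX-labelled cells, with a median log2 ratio of -0.05. Without the 4 cells that passed another definition, 45 of the same 862 genes (5.22%) were higher and 77 (8.93%) lower, so that more genes were lower than higher, and at 2000 UMIs per cell, where fewer genes reach 50 UMIs, 11 were higher and 13 lower. Several genes of the mast cell lists were within 2-fold between the libraries. Log2 ratios were 0.05 (0.00 to 0.09) for *Mcpt4*, 0.31 for *Cpa3*, 0.20 for *Hdc*, -0.20 (-0.42 to 0.03) for *Mrgprb1*, -0.13 for *Mrgprb2* and -0.57 (-1.19 to 0.04) for *Ms4a2*. Those of *Cma1*, at 0.61, *Tpsb2*, at 0.78, and *Kit*, at 0.66, were also under 2-fold. When 5 UMIs of *Cpa3* alone sufficed to choose a cell, which gave 39 and 26 cells, the ratios were 1.47 for *Cma1*, 1.64 for *Tpsb2*, 1.52 for *Kit* and 1.13 for *Cpa3*, all past 2-fold. The added cells, mostly PBS-labelled, include 1 with 26 UMIs of *Cpa3*, 0 of *Mcpt4*, *Cma1* and *Tpsb2* and a protease share of 0.184%. *Cpa3* was also found in 20 of 23 PBS-labelled basophil-like cells.

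Higher in the DTX-labelled cells were *Fcer1a*, at 1268 (1075 to 1484) and 4307 (4016 to 4614) CPM, a log2 ratio of 1.76 (1.51 to 2.02). *Tph1* had 22 UMIs in 9 of 28 and 233 UMIs in 20 of 25 cells, with 0, 0 and 9 UMIs at the lowest, median and highest PBS-labelled cell and 0, 4 and 48 among DTX-labelled cells. Its log2 ratio was 2.76 (2.14 to 3.47). For *Tpsab1*, 51 UMIs in 10 cells and 231 UMIs in 19 cells gave a log2 ratio of 1.54 (1.10 to 2.01), and for *Il1rl1* 64 UMIs in 13 cells and 302 UMIs in 22 cells gave 1.60 (1.21 to 2.02). Over cells of all depths, most DTX-labelled cells thus carried these 4 RNAs and most PBS-labelled cells had 0 UMIs of them. The ranges of single cells overlapped. Among cells with at least 2000 UMIs, thinned to that depth, the 4 RNAs were found, in that order, in 9, 6, 7 and 8 of 19 PBS-labelled cells. Of DTX-labelled cells it was 18, 13, 16 and 17 of 19. Unthinned, *Fcer1a* was found in 10 of these 19 PBS-labelled cells. Without the 4 cells that passed another definition, the ratios of the 4 genes were 1.61, 2.71, 1.41 and 1.45. At 2000 UMIs per cell, to which the deeper DTX-labelled cells were thinned as well, they were 1.65, 2.78, 1.50 and 1.76.

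Of the other genes with the largest ratios, *Hspa1a*, an inducible heat shock gene, had 3 UMIs in 3 and 127 UMIs in 10 cells (log2 ratio 4.71, 3.19 to 7.06), with 60 of them in 1 DTX-labelled cell. *Hspa1b* had a log2 ratio of 2.42, with 80 of its 142 DTX-labelled UMIs in that cell, which also held 76 of the 173 UMIs of *Dnaja1*. *Ccl1*, a ligand of CCR8, had 6 UMIs in 4 and 94 UMIs in 8 cells (3.31, 2.16 to 4.82), of which the 2 highest cells held 65. *Ctla2a*, a cysteine protease inhibitor, had 37 UMIs in 16 and 364 UMIs in 18 cells (2.66, 2.17 to 3.19), of which 1 cell held 128. *Pla2g7*, which degrades platelet-activating factor, had 22 UMIs in 8 and 128 in 16 cells (1.90, 1.24 to 2.63). *Cxcl2*, a neutrophil attractant, had 40 and 265 UMIs, each in 13 cells (2.09). Counts of these genes were thus uneven, and a few cells set some of the ratios. Of the *Hspa1a* UMIs, 20 and 17 were in 2 DTX-labelled cells with 5427 and 5613 UMIs. Both cells also had near equal counts of *Kit* (11 and 11), *Hdc* (33 and 33), *Tph1* (15 and 15) and *Ccl7* (51 and 50). *Tpsab1* (3 and 7) and the mitochondrial share (2.14% and 6.81%) differed more. They are counted as 2 cells throughout, and whether they were 1 cell was not tested. Without the 4 cells of another definition the ratios were 4.42 for *Hspa1a*, 1.80 for *Pla2g7* and 1.69 for *Cxcl2*. With both limits of the study, which left 12 and 6 mast cells, that of *Cxcl2* was -0.38. The ratio of *Cd74*, the MHC class II invariant chain, was 2.35, and it was -1.12 without the cells of another definition.

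**Figure D5:**
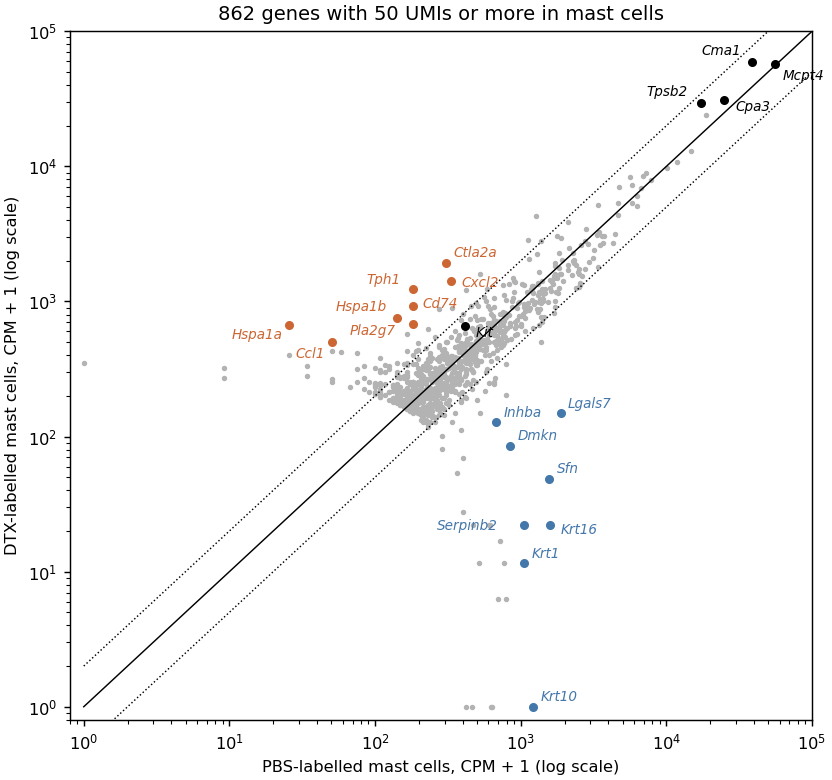
Level in DTX-labelled against PBS-labelled mast cells, in CPM plus 1 on logarithmic axes, for 862 genes; solid and dotted lines mark equality and 2-fold differences. The 8 largest ratios in each direction among genes with at least 100 UMIs are coloured and the rule genes are black, and most of the 862 genes lie between the dotted lines.

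Among genes with at least 100 UMIs, the 8 with the largest ratios in the lower direction in the DTX-labelled cells were *Krt10*, *Krt1*, *Krt16*, *Serpinb2*, *Sfn*, *Lgals7*, *Dmkn* and *Inhba*. *Krt10* had 148 and 0 UMIs and was at least 76.6-fold lower, when the DTX-labelled group is set at 3 UMIs. Without the single PBS-labelled cell of the keratinocyte definition 1 UMI of *Krt10* remained, and *Krt1* went from 128 to 4 UMIs. *Krt16* then went from 193 to 20 UMIs, *Lgals7* from 228 to 37 and *Dmkn* from 103 to 7, so that cell carried most of them. Without the 4 cells of another definition the levels were 375 and 172 CPM for *Lgals7*, 202 and 19.9 for *Krt16* and 70.9 and 19.9 for *Dmkn*. *Sfn* kept 61 of 191 and *Serpinb2* 77 of 127 PBS-labelled UMIs, the latter in 4 cells. *Inhba*, the activin A subunit, had 0 UMIs in that cell. It was counted with 82 UMIs in 12 and 24 UMIs in 7 cells, a log2 ratio of -2.40 (-3.13 to -1.74), and of -3.25 without the 4 cells of another definition. *Cyp11a1* had a log2 ratio of -0.93 (-1.29 to -0.57) and *Fdx1* of -1.01 (-1.35 to -0.67). *Tpsg1* had a log2 ratio of -1.05 (-1.66 to -0.45), opposite in sign to that of *Tpsab1*. *Prss34*, in 4 PBS-labelled cells and at 0 in the DTX-labelled library, was at least 39.4-fold lower. Each of these 4 cells was beyond a limit of the study, so with both limits *Prss34* had 0 UMIs in both libraries. *Ccl4* had 96 UMIs, of which 77 came from 1 cell, and 1 UMI, a log2 ratio of -6.97 (-12.54 to -4.71). All cells with a UMI of *Ccl4* had more than 6% mitochondrial UMIs, and at that limit its ratio was 0.

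By list, 2 of 13 granule protease genes were more than 2-fold higher in the DTX-labelled cells (*Ctsd* and *Tpsab1*) and 3 lower (*Gzmb*, *Tpsg1* and *Prss34*), with a median log2 ratio of 0.31. With both limits of the study *Gzmb* was at 0.63 and *Prss34* at 0. In the amine list 1 of 8 was higher (*Tph1*), in the FcεRI list 1 of 8 (*Fcer1a*), among other receptors 1 of 9 (*Il1rl1*), and 0 were lower in the 3 lists, whose medians were 0.16, 0.00 and -0.20. Cytokines and chemokines had 5 of 11 higher (*Cxcl2*, *Ccl1*, *Il1b*, *Osm* and *Ccl9*) and *Ccl4* lower, with a median of 0.78, which was 0.08 in other kept cells. Several of these sat in few cells, and 61 of the 80 *Il1b* UMIs and 35 of the 53 *Ccl9* UMIs of the DTX-labelled library were in 1 cell each. Without the 4 cells that passed another definition, 2 of the 11 were higher (*Ccl1* and *Cxcl2*) and 3 lower (*Ccl4*, *Il1b* and *Ccl9*), with a median of 0.33. The log2 ratio of *Il1b* then was -1.17 and that of *Ccl9* -1.54, against 2.86 and 3.05 with them. With both limits of the study that of *Cxcl2* was -0.38. Heat shock genes had 4 of 9 higher (*Hspa1a*, *Hspa1b*, *Dnajb1* and *Dnaja1*) and 0 lower. When the cell with most UMIs of the gene was left out of each library, their log2 ratios were 4.38, 2.15, 1.14 and 0.49. With at most 6% mitochondrial UMIs, which left 14 and 12 cells, *Hspa1a* was at 1.85 and *Hspa1b* at 0.24, within 2-fold. Immediate early genes had *Fos* and *Fosb* higher and *Egr1* and *Atf3* lower of 16. Of the remaining lists, *Alox5ap*, *Tgfb1*, *Ifitm3* and *Ifi27l2a* were higher, *Stmn1* and *Clec10a* were lower, and the lineage factor, degranulation, adhesion and glycolysis lists had none beyond 2-fold. Without the 4 cells of another definition *Dnaja1*, *Tpsg1*, *Alox5ap* and *Ifi27l2a* were within 2-fold, *Ctsl*, *Fyn*, *Timp1*, *Thbs1* and *Ier3* were more than 2-fold lower, and *Ifitm3* was lower rather than higher. The shares of all 862 genes beyond 2-fold, given above with and without the 4 cells, are the background of these counts.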

How the data were processed

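Single-cell RNA libraries (10x Genomics 3′ chemistry) were made from live cells of pooled wounds. The authors aligned the reads to mm10 with Cell Ranger, for which the submitters' processing notes give version 6.1.1 and the methods another version, and deposited raw UMI counts per gene and barcode. From these counts, barcodes with 500 or more genes were kept if no more than 10% of their UMIs were mitochondrial, and mast cells were chosen by protease RNA as described above. The filter that the study states is stricter and is an alternative. No doublet caller was run. UMIs were summed over the mast cells of a library and divided by their total, and 1 count per 1000000 UMIs (CPM) was added before log2 ratios. Ratios were counted for genes with at least 50 UMIs over the mast cells. Sums favour deep cells, so means over cells and thinning to 2000 UMIs (seed 1) were alternatives.

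The 2 libraries are 1 per label, so no test was run. The median depth was 9512 and 7341 UMIs per kept cell. Intervals treat UMIs as independent molecules. Levels are from 3′ tags, and ratios compare 1 gene between cells. Only the shares of *Cma1* and *Tpsb2* among the proteases and the rankings by UMI number set counts of different genes side by side. Near-identical paralogs (*Mcpt*, *Tpsb2* and *Tpsab1*, *Hspa1a* and *Hspa1b*) may share reads, which makes their split uncertain. A group at 0 UMIs was set at a floor of 3 UMIs for a bound.

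The mast cells and the 16 gene lists were chosen with earlier results of these data known. Genes named in the text were the 5 genes of the rule, list members with at least 10 UMIs, the 15 genes with the largest ratio over other cells in the lower of the 2 libraries, the 8 largest ratios in each direction between libraries among genes with at least 100 UMIs, the 10 most variable after thinning and the 10 most abundant, beside marker genes. The comparison with basophil-like cells, the split by *Fcer1a* and *Fdx1* were added after the data had been seen. A cell of another class was a kept cell that passed 1 definition of 6 and was no mast cell: macrophage-like as given, neutrophil-like by *S100a8* and *S100a9* (at least 1% of UMIs) with *Csf3r*, *Cxcr2* or *Retnlg*, T- or NK-like by at least 3 UMIs of *Cd3d*, *Cd3e*, *Cd3g*, *Trbc1*, *Trbc2* and *Nkg7* without *Csf1r*, fibroblast-like by *Col1a1* and *Col3a1* (at least 1%) with *Pdgfra*, keratinocyte-like as given and endothelial-like by *Pecam1* and *Cdh5*. For the 36 symbols that occurred more than once the first was used. Of 31053 gene identifiers, 31011 were in GENCODE M21, which gave gene positions, and promoters were from RefSeq. Python 3.11.15, numpy 2.4.6, scipy 1.17.1, pandas 2.3.3 and matplotlib 3.10.9 were used, and the ratios were tested on simulated data.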

Additional observations from a re-analysis of the deposited data

Results flagged for a closer look

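Ratios of DTX-labelled over PBS-labelled libraries went in opposite directions in mast cells and in all other kept cells for 4 of the named genes with at least 50 UMIs, when more than 2-fold was asked of both kinds of cell and both counting intervals had to leave out equality. Smaller opposite differences are not listed. With 1 library on each side, the difference was not tested. *Ctla2a* had a log2 ratio of 2.66 in mast cells and -1.65 in other cells. *Ccl1* had 3.31 and -1.11, and *Il1rl1* 1.60 and -1.10. *Clec10a* had -1.27 in mast cells and 1.16 in other cells. The mix of other cells differed between the libraries, and within single classes the direction was not always that of all other cells. *Clec10a* was lower in DTX-labelled macrophage-like cells (98.6 and 56.3 CPM), as in mast cells. *Il1rl1* had 422 and 476 CPM in fibroblast-like cells and, thinned to 2000 UMIs, was found in 26.4% and 26.6% of them. *Ctla2a* had 1409 and 235 CPM in fibroblast-like and 1053 and 1580 in T- or NK-like cells. *Ccl1* had 29.1 and 10.7 CPM in T- or NK-like cells.

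Barcodes outside the cell filter also carried mast cell RNA. The protease rule was passed by 21 such barcodes in the PBS-labelled and 10 in the DTX-labelled library, of which 15 and 6 had fewer than 500 genes and 12 and 5 more than 10% mitochondrial UMIs, with 6 and 1 failing both. Their median protease share was 8.65% and 10.3% and their median depth 686 and 754 UMIs.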

How the results depend on the processing

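No paired analysis was possible because each label has 1 library. Of the log2 ratios between libraries of the named genes under the alternatives, 353 of 495 stayed within the counting interval of the reported value and 142 did not. Of those more than 2-fold as reported, 9 changed sign, for 7 genes given below. Of those within 2-fold, 22 changed sign, for 12 genes (*Ccl2*, *Ccl7*, *Cd200r3*, *Cpa3*, *Ctsg*, *Hdc*, *Mcpt4*, *Mrgprb1*, *Mrgprb2*, *Mrgprx2*, *Ms4a2* and *Slc6a4*), whose direction is not stable. For mast over other cells 27 of 140 stayed within the interval and 0 changed sign. *Cd74*, at 2.35 as reported, was -1.12 without cells that passed another definition. *Ccl3*, at -3.69, was 4.24 and *Dmkn*, at -3.31, was 0.33 with at most 6% mitochondrial UMIs. With at most 2000 genes as well, which leaves 12 and 6 mast cells, *Calca*, at -1.97, was 1.61, *Cxcl2* -0.38, *Dmkn* 0.20, *Gzmb* 0.63 and *Krt16*, at -6.16, 0.20. *Hspa1b* went from 2.42 to 0.24 and *Hspa1a* from 4.71 to 1.85 with at most 6% mitochondrial UMIs. *Dmkn* was 0.45 without the deepest mast cell of each library, an alternative added after seeing the data. The ratios of *Krt10*, *Sfn*, *Prss34* and *Ccl4* reached 0 under at least 1 alternative. Over all alternatives *Fcer1a* stayed between 1.30 and 2.35, *Tph1* between 2.47 and 3.77, *Tpsab1* between 1.31 and 2.40 and *Il1rl1* between 1.29 and 2.62, while *Mcpt4* went from -0.26 to 0.91, *Cpa3* from -0.07 to 1.13, *Cma1* from 0.31 to 1.47, *Tpsb2* from 0.53 to 1.64 and *Kit* from 0.08 to 1.52.

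The share of mast cells was 0.168% and 0.167% with at most 6% mitochondrial UMIs, 0.476% and 0.227% with the gene limit as well and 0.671% and 0.314% among *Ptprc* cells. The 69 genes more than 2-fold higher became 34 with at most 6% mitochondrial UMIs, 12 with the gene limit as well, 130 when 5 UMIs of *Cpa3* alone sufficed (39 and 26 cells), 32 without cells of another definition (36 lower, both among genes that still had 50 UMIs), 11 after thinning, 223 from 20 UMIs and 25 from 100 UMIs. The 46 lower genes became 24, 11, 145, 13 after thinning, 170 and 18, in the same order but without the setting that leaves out cells of another definition. The 112 genes more than 4-fold over other cells became 72 with at most 6% mitochondrial UMIs, 23 with the gene limit as well and 174 from 20 UMIs. Fewer cells or UMIs leave fewer genes past the minimum. The split by *Fcer1a* without the cell of the keratinocyte definition, the list counts without cells of another definition and the ratios without the cell with most UMIs of a gene were also added after seeing the data. Depth limits what can be said of sparse genes such as *Mitf*, *Il4* and *Tnf*.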

Other observations

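Some genes outside the lists were high in mast cells, and they were chosen after their values were seen. *Serpinb1a*, an inhibitor of neutrophil-type serine proteases and chymases, was found in all mast cells, with 567 UMIs in 28 and 825 UMIs in 25 cells, at 4667 and 4371 CPM against 64.0 and 37.0 in other cells. *Slco2b1*, an organic anion transporter, had 178 UMIs in 20 and 233 UMIs in 22 cells.

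Neuropeptide genes were uneven. *Calca*, the gene of calcitonin and CGRP, had 96 UMIs in 9 PBS-labelled cells, of which 1 cell held 40, and 38 UMIs in 9 DTX-labelled cells. *Penk*, the enkephalin precursor, had 40 UMIs in 5 cells and 70 UMIs in 6 cells, of which the highest cells held 18 and 45.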
